A study of Mus musculus with 6 samples.

Results

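Toll-like receptors (TLRs) are the germline-encoded sensors that link microbial molecules to the inflammatory and interferon response. TLR4 is the receptor for lipopolysaccharide (LPS), and the genes described here are 9 other receptors of the family, Tlr1, Tlr2, Tlr3, Tlr5, Tlr6, Tlr7, Tlr8, Tlr9 and Tlr13. They were chosen by gene symbol among the 46603 gene identifiers in the count files, a rule that uses no measured value, although earlier results of these data were known when the family was picked. The data came from 6 poly(A) RNA libraries of cultured EGCs, enteric glial cells that in life surround the neurons of the gut, grown here from neurospheres of C57BL/6J mouse intestine at embryonic day 14.5. Neurospheres were made from the digested whole intestine and the cells were then grown to confluence with serum, so other cells of the gut wall could persist beside the glia. The control group was 3 untreated cultures, and the LPS group was 3 cultures of the same strain and origin exposed to 100 ng/ml LPS for 12 h. The study profiled them to learn what EGCs produce at rest and once activated. The labels number the samples within each group without saying whether they came from separate cultures or animals, so p-values measure only the spread between these samples, which may be technical.

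TLRs fall into a surface class and an endosomal class. TLR2 works on the plasma membrane as a pair with TLR1 or TLR6 and binds bacterial lipoproteins, and TLR5 binds flagellin. In endosomes TLR3 binds double-stranded RNA, TLR7 and TLR8 bind single-stranded RNA, TLR9 binds unmethylated CpG DNA and TLR13, which humans lack, binds bacterial ribosomal RNA. The endosomal receptors need the chaperone UNC93B1 to leave the endoplasmic reticulum and are cut by lysosomal proteases. All of them except TLR3, which uses TRIF (the product of Ticam1), signal through the adaptor MyD88. Macrophages are well-known carriers of most of these receptors.

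On the mouse genome GRCm38, Tlr1 lies at chr5:64924679-64933563 and Tlr6 beside it at chr5:64952031-64960097, both on the minus strand. Tlr2 spans chr3:83836272-83841767 (minus), Tlr5 chr1:182954788-182976044 (plus), Tlr3 chr8:45395665-45411080 (minus) and Tlr9 chr9:106222598-106226883 (plus). The other 3 genes are X-linked, with Tlr7 at chrX:167304929-167330558 and Tlr8 at chrX:167242696-167264329 on the minus strand and Tlr13 at chrX:106143204-106160493 on the plus strand. All 9 are protein-coding genes. RefSeq gave start-site windows (250 bases before to 50 after the start, GRCm38.p6) for 8 of the 9 members, and Tlr7 had none. The windows were searched on both strands for the NF-κB consensus (kappa-B), for GAAA repeated after a gap of 2 bases, a core of interferon-response elements, and for GAGGAAGT, a core bound by the macrophage factor PU.1. A match describes letters and not a bound site.

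The sequences of the called receptors with a match outside annotated exons are shown in coding-strand direction, with the matched letters in capitals, because these are the genes that rose after LPS. In Tlr2 a kappa-B match, which reads the same on both strands, lay at bases -172 to -163 from the RefSeq start, within chr3:83841768-83841858. That RefSeq start (chr3:83841608) lies inside the gene as annotated above, which begins at chr3:83841767. The match, at chr3:83841771-83841780, thus lay just before the annotated start. In Tlr1 a GAGGAAGT lay at bases -23 to -16, within chr5:64933564-64933808. The other Tlr1 window, at chr5:64932650-64932949, held no match.
Tlr2: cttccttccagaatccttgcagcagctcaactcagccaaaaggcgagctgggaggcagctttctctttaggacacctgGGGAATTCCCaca
Tlr1: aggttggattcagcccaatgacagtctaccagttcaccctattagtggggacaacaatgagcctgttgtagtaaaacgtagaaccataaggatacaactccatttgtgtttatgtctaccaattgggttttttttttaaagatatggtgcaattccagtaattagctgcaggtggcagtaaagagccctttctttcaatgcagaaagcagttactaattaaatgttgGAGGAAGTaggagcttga
Tlr3 held a kappa-B match, gggagtttcc, at bases -211 to -202, inside an exon annotated from an upstream start. Of 32851 windows of the same length in the genome, 5.80% held a kappa-B match, 3.44% a spaced GAAA repeat and 3.20% a GAGGAAGT. Among the members that were not called, Tlr6 held 2 overlapping spaced GAAA repeats at bases -116 to -101 in its window at chr5:64959117-64959416. Its other window, at chr5:64959999-64960298, held no match. Tlr9 held a GAGGAAGT inside its first exon, while the windows of Tlr5, Tlr8 and Tlr13 held no match to these letters.

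Tlr1 and Tlr6 share sequence, which bears on how their reads were counted. Of the 50-base words in their transcripts, 13.6% of those of Tlr1 and 12.3% of those of Tlr6 occur in the other gene, and the longest identical run is a coding stretch of 229 bases at chr5:64925537-64925765 in Tlr1 and chr5:64953828-64954056 in Tlr6. It is shown once, since it is the same in both.
Tlr1 and Tlr6: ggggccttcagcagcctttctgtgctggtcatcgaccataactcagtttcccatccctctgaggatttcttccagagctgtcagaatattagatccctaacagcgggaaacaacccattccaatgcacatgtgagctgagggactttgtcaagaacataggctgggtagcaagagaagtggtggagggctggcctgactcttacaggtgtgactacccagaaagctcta
How reads that fit both genes were treated is not given in the sources used here, so the counts of Tlr1 and Tlr6 carry an uncertainty that the replicate error does not show. A smaller limit concerns Tlr3, in which 381 bases of exon (7.32% of its exon length) overlap Gm45542 on the opposite strand.

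Total counts ranged from 18775316 to 23664312 per library. A gene with 3 counts, taken as the floor, corresponded to 0.124 to 0.167 CPM (counts scaled to 1000000 of normalized library size), and the members had between 17 and 6542 counts per library, so all 9 passed the filter on low counts. Both libraries numbered 3 stood apart from the rest of their group. All 18 macrophage markers listed, such as Ptprc (CD45), Csf1r, Adgre1 (F4/80) and Tyrobp, were highest in control 3 among controls and in LPS 3 among LPS libraries, with a median ratio to the mean of replicates 1 and 2 of 2.66 in control and 5.12 in LPS. The summed level of these markers ran from 4811 to 14939 CPM in control and from 4584 to 22788 CPM in LPS, and none of the 18 was at the floor in every library. The glial gene Sox10 was at 101, 89.5 and 73.8 CPM in control and 76.8, 78.2 and 75.9 CPM in LPS, so RNA of the labelled glia was present, beside that of macrophages and of mesenchymal cells (6 markers summing to 11944 to 12591 CPM). Of the 10 glial markers, S100b and Cdh19 fell after LPS (log2 fold changes of -1.91 and -0.66) and Fabp7 rose (1.29), and all 6 smooth muscle markers fell, their sum going from 2266 to 2492 CPM in control to 634 to 900.3 CPM in LPS. The 4 mesothelial markers summed to 61.5 to 93.2 CPM in control and 31.6 to 55.3 CPM in LPS, 1 of them called lower (all 4 with the block). Of the 6 mesenchymal markers 2 rose, Dcn and Pdgfra, and the block also called 1 lower, Lum. The neutrophil gene S100a8 rose, while the other 4 neutrophil markers were at or under the floor in every library. The part of these shifts in the receptor results was not tested. Of the 4 markers of plasmacytoid dendritic cells, other known carriers of Tlr7 and Tlr9, 2 were at or under the floor in every library, among them the defining gene Siglech, while Bst2 and Tcf4, which many cells express, were not. Of the 9 receptors, 8 were also highest in replicate 3 of both groups, as were 29.5% of all 15226 genes tested. The exception was Tlr5. In such bulk libraries, fewer cells of a type and less RNA per cell cannot be told apart.

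First, the levels of the 9 receptors were compared between LPS and control cultures. Tlr1, Tlr2 and Tlr3 rose after LPS and none of the 9 fell in the edgeR quasi-likelihood test with the group as the single term. At an unadjusted p under 0.05 that test had 4 higher (Tlr6 in addition) and 0 lower, beside 16.1% and 16.0% of all genes, and DESeq2 called 4 higher and 1 lower (Tlr13), beside 13.7% and 11.0%. Across all 15226 genes tested, 9.09% were called higher and 6.71% lower. The libraries of both groups did not overlap for these same 3 receptors, with LPS above control, and no receptor had every LPS library below control. Among all genes tested, 19.3% had LPS above control without overlap and 19.4% had LPS below. The median log2 fold change of the 9 receptors was 1.07, beside -0.02 over all genes. With the replicate number as a block, 5 receptors were called higher (Tlr6 and Tlr9 in addition) and 1 lower (Tlr13), where 15.4% of all genes were called higher and 14.9% lower. The labels do not state this pairing, which was taken from these same data, so p-values with the block may be too small.

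**Figure D1:**
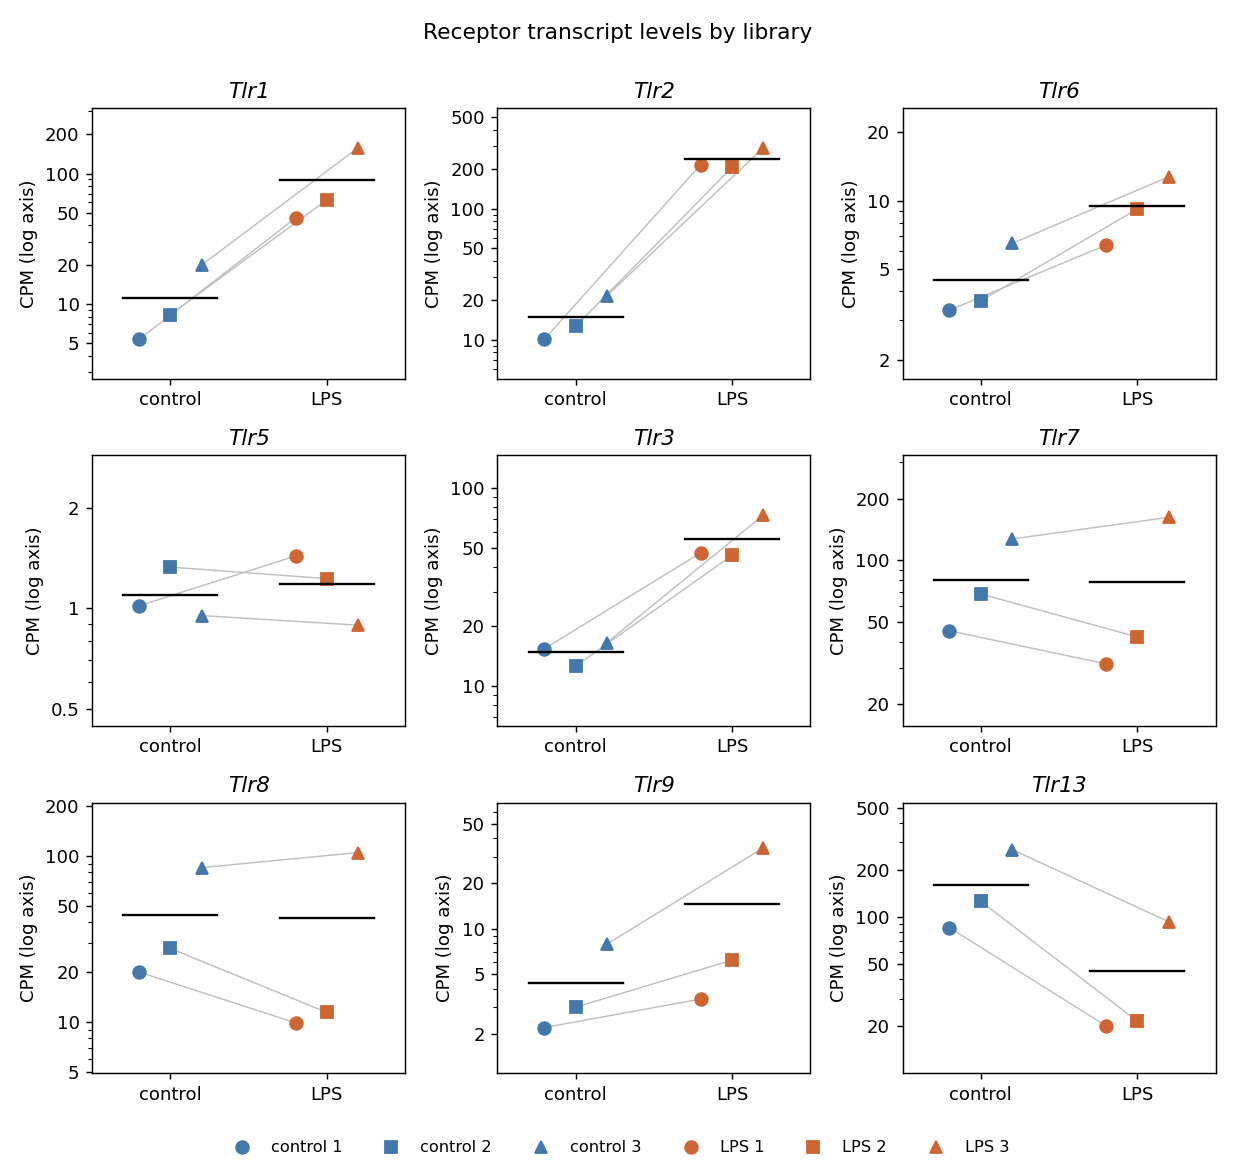
Level of each receptor transcript in CPM on a log axis for every library, with controls in blue and LPS cultures in orange. Symbols mark the replicate number, grey lines join libraries of the same number and black bars are group means. In the panels of Tlr1, Tlr2 and Tlr3 all LPS libraries lie above all control libraries. In those of Tlr1, Tlr7, Tlr8, Tlr9 and Tlr13 replicate 3 lies far above replicates 1 and 2.

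Among the surface receptors, Tlr2 had the largest fold change of the 9 members. It stood at 10.0, 12.6 and 21.6 CPM in control replicates 1, 2 and 3 and at 218, 208 and 293 CPM in LPS replicates 1, 2 and 3. Every LPS library was thus far above the highest control. The mean rose from 14.8 ± 6.08 to 239 ± 46.6 CPM (SD, n = 3), 16.2-fold, or 4.02 on the log2 scale (SE 0.34, adjusted p = 0.00203). The call held whichever single library was left out.

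Tlr1, the partner of TLR2 for triacylated lipoproteins, was at 5.34, 8.28 and 19.9 CPM in control and at 45.7, 62.9 and 158 CPM in LPS. The groups did not overlap, and LPS 3 was again the highest. The mean rose 7.95-fold, from 11.2 ± 7.71 to 88.9 ± 60.5 CPM (SD, n = 3), or 2.99 on the log2 scale (SE 0.69, adjusted p = 0.0393). Within libraries of the same number the ratios were 8.55, 7.60 and 7.94, far closer to each other than the levels, and the SE with the replicate block was 0.07. Without the block, however, the call was lost when control 1, control 2, LPS 1 or LPS 2 was left out, with adjusted p of 0.120, 0.153, 0.0648 and 0.0967, while the log2 fold change stayed between 2.27 and 3.72 over all 6 such fits.

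Tlr6, the alternative partner of TLR2, was at 3.31, 3.63 and 6.49 CPM in control and at 6.37, 9.20 and 12.7 CPM in LPS. LPS 1 fell just under control 3, so the groups overlapped by 1 library. The log2 fold change was 1.07 (SE 0.37, adjusted p = 0.106), and with the replicate block it was 1.08 (SE 0.15, adjusted p = 0.0111). LPS was higher in 3 of 3 pairs, by 1.93 to 2.53-fold. Both partner genes share the 229-base run shown above.

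Tlr5, the flagellin receptor, was close to the lower end of what these libraries could measure, with 17 to 30 counts per library. Its level was 1.02, 1.33 and 0.951 CPM in control and 1.43, 1.23 and 0.890 CPM in LPS. The groups overlapped, and the log2 fold change of 0.11 (SE 0.28, adjusted p = 0.832) turned to -0.043 when library size alone was used for scaling.

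**Figure D2:**
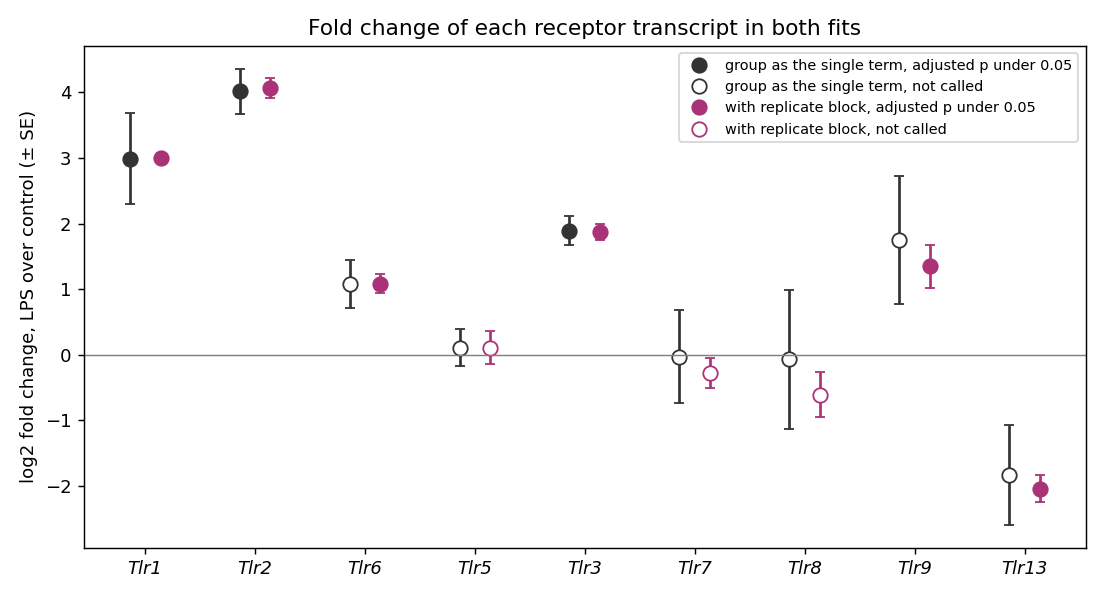
Log2 fold change of LPS over control for each receptor transcript, with SE bars, from the fit with the group as the single term (grey) and the fit with the replicate block (purple). Filled points have an adjusted p under 0.05. Tlr1, Tlr2 and Tlr3 are filled in both fits, Tlr6, Tlr9 and Tlr13 only with the block, and Tlr5, Tlr7 and Tlr8 in neither.

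Among the 5 endosomal receptors, the single-term fit called 1 higher (Tlr3) and 0 lower, beside 9.09% and 6.71% of all genes. The block called 2 higher (Tlr3 and Tlr9) and 1 lower (Tlr13), beside 15.4% and 14.9%. Tlr3, the sensor of double-stranded RNA, was at 15.4, 12.6 and 16.6 CPM in control and at 47.0, 45.7 and 72.9 CPM in LPS. Relative to its mean it was the most even of the 9 members among controls, and control 3 was only 1.18 times the mean of controls 1 and 2. The mean rose 3.71-fold, from 14.9 ± 2.04 to 55.2 ± 15.3 CPM (SD, n = 3), or 1.89 on the log2 scale (SE 0.22, adjusted p = 0.00581), and the call held with each library left out in turn.

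Tlr13, the sensor of bacterial ribosomal RNA, had the opposite direction. It was the most abundant member in control, at 85.4, 126 and 270.4 CPM, and was at 20.1, 21.5 and 93.3 CPM in LPS. LPS 3 exceeded control 1, and the other LPS libraries lay under every control. The log2 fold change was -1.84 (SE 0.76, adjusted p = 0.1602), which was not called. With the replicate block it was -2.04 (SE 0.21, adjusted p = 0.00552), and control exceeded LPS 4.26, 5.86 and 2.90-fold in pairs 1, 2 and 3. Leaving out LPS 3 alone also gave a call, with a log2 fold change of -2.95 (adjusted p = 0.0225).

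Tlr7 and Tlr8, neighbouring receptors of single-stranded RNA, differed more between replicate 3 and the rest than between control and LPS. Tlr7 was at 45.5, 68.7 and 127 CPM in control and at 31.4, 42.5 and 162 CPM in LPS. Tlr8 was at 20.1, 27.8 and 85.4 CPM in control and at 9.93, 11.5 and 105 CPM in LPS. For both, LPS was lower in the pairs numbered 1 and 2 and higher in the pair numbered 3. Neither was called in the single-term fit, with log2 fold changes of -0.03 (SE 0.71, adjusted p = 0.980) for Tlr7 and -0.07 (SE 1.06, adjusted p = 0.970) for Tlr8. The block gave -0.28 (SE 0.23, adjusted p = 0.383) and -0.61 (SE 0.34, adjusted p = 0.237). These standard errors leave room for changes in either direction.

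Tlr9, the CpG DNA receptor, was at 2.20, 3.01 and 7.89 CPM in control and at 3.41, 6.19 and 34.5 CPM in LPS. LPS 3 was 7.19 times the mean of the other two LPS libraries, and LPS 1 and LPS 2 lay within the range of the controls. The log2 fold change was 1.75 (SE 0.98, adjusted p = 0.277) and fell to 0.13 without LPS 3. With the replicate block it was 1.34 (SE 0.33, adjusted p = 0.0422), with LPS 1.55, 2.05 and 4.37-fold higher in the 3 pairs.

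The weight of the libraries numbered 3 was examined by leaving both out, a step chosen after seeing the data. In the 4 libraries that remained, Tlr1, Tlr2, Tlr3 and Tlr6 were called higher and Tlr8 and Tlr13 lower, where 22.6% of 15466 genes were called higher and 20.4% lower. On the log2 scale Tlr8 changed by -1.14 (SE 0.17, adjusted p = 0.00263) and Tlr13 by -2.32 (SE 0.19, adjusted p = 0.000166). The value for Tlr7 was -0.61 (SE 0.22, adjusted p = 0.0640). Adding the block to these 4 libraries called Tlr9 higher and Tlr7 lower as well (5 higher and 3 lower in all), beside 25.8% and 24.1% of all genes.

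Next, the receptors were set against each other as CPM per kilobase of exon, which allows levels of different genes to be compared. In control, Tlr13 had the highest mean at 37.3 ± 22.6 CPM per kb, followed by Tlr7 (19.7 ± 10.3), Tlr8 (12.4 ± 9.95), Tlr2 (4.90 ± 2.02), Tlr1 (3.34 ± 2.30), Tlr3 (2.86 ± 0.391), Tlr9 (1.26 ± 0.885), Tlr6 (1.20 ± 0.470) and Tlr5 (0.229 ± 0.0421; SD, n = 3 throughout). The spread between controls was wide, and of the 8 pairs of neighbours in this order 2 did not overlap, Tlr3 over Tlr9 and Tlr6 over Tlr5. Compared within libraries, 6 of the 8 held this order in 3 of 3 controls, and the exceptions were Tlr1 over Tlr3 and Tlr9 over Tlr6. In LPS, Tlr2 came first at 79.5 ± 15.5 CPM per kb, above every library of the next, Tlr1 (26.6 ± 18.1). Tlr7 (19.3 ± 17.7), Tlr8 (11.8 ± 15.2), Tlr3 (10.6 ± 2.94), Tlr13 (10.4 ± 9.73), Tlr9 (4.23 ± 4.95), Tlr6 (2.53 ± 0.853) and Tlr5 (0.247 ± 0.0572) followed, and among these 8 only Tlr6 and Tlr5 were neighbours without overlap. Within libraries 5 of the 8 pairs of neighbours held in 3 of 3, but not Tlr8 over Tlr3 (1 of 3), Tlr3 over Tlr13 (2 of 3) and Tlr9 over Tlr6 (1 of 3). Within each library, Tlr13 was at place 1 in all 3 controls and at place 5 in all 3 LPS libraries, and Tlr2 at place 4 in all 3 controls and at place 1 in all 3 LPS libraries.

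The make-up of the receptor transcript pool, each member's share of the summed CPM per kb of the 9, was compared next. Tlr13 made up 42.9, 45.0 and 45.4% of the pool in control and 4.12, 4.18 and 8.25% in LPS. Tlr2 made up 7.21, 6.43 and 5.19% in control and 63.9, 57.6 and 37.0% in LPS. In both cases no library of one group reached the other. Shares of 1 pool are tied to each other, so a gain of one receptor lowers the rest.

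Tlr1 also took a larger share in LPS, 15.3 ± 2.98% beside 3.85 ± 0.428% in control (SD, n = 3). Tlr7 took a smaller one, 10.2 ± 4.35% beside 24.2 ± 1.67%, and so did Tlr8, 5.43 ± 4.97% beside 13.8 ± 2.998%. For these 5 receptors the groups did not overlap, and a two-sided exact permutation test gave p = 0.1, the smallest that 3 libraries against 3 allow, and 0.18 after adjustment over the 9 members. The shares of Tlr3, Tlr5, Tlr6 and Tlr9 overlapped between groups. The 4 surface receptors together held 13.0, 12.2 and 10.9% of the pool in control and 77.8, 75.6 and 56.4% in LPS, and the endosomal receptors the remainder.

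**Figure D3:**
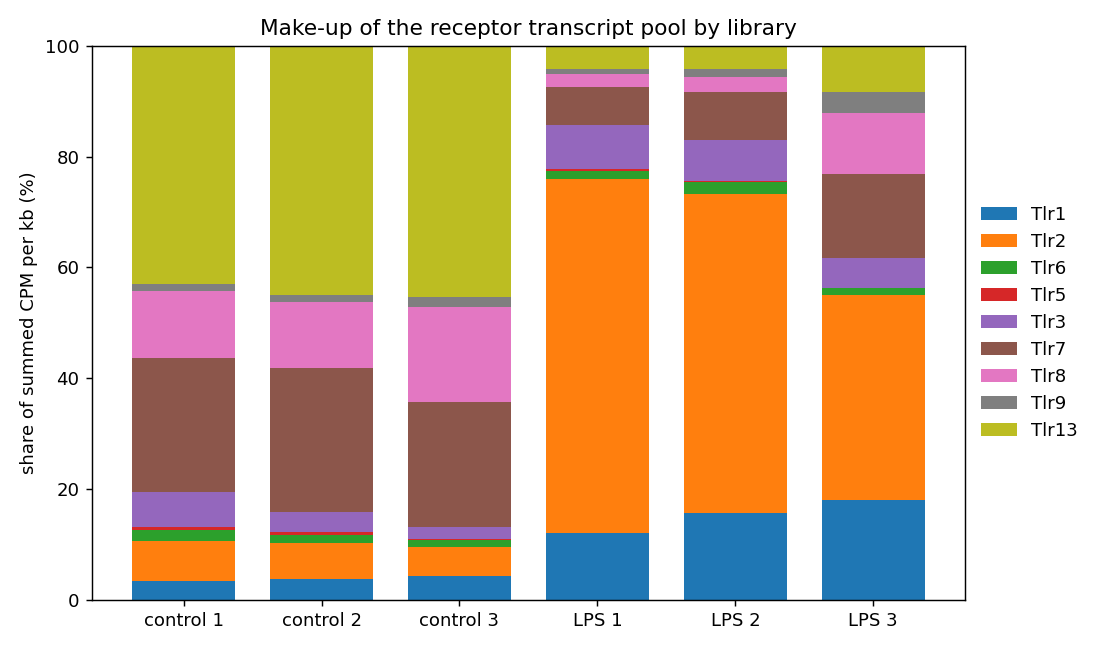
Share of each of the 9 receptors in their summed CPM per kb of exon, in percent, with 1 bar per library. The control bars are mostly Tlr13, Tlr7 and Tlr8 and look alike, and the LPS bars are mostly Tlr2 and Tlr1, with more Tlr7 and Tlr8 in LPS 3 than in LPS 1 and LPS 2.

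Since TLR2 signals as a pair, its transcript was compared with those of both partners on the same per-kilobase scale. The ratio of Tlr2 to Tlr6 was 3.76, 4.30 and 4.12 in control and 42.2, 27.9 and 28.5 in LPS, with no overlap. That of Tlr1 to Tlr6 was 1.80, 2.54 and 3.42 in control and 7.98, 7.62 and 13.8 in LPS, again with no overlap. The ratio of Tlr2 to Tlr1 was 2.09, 1.69 and 1.20 in control and 5.29, 3.66 and 2.06 in LPS. Here LPS 3 fell just under control 1, and LPS was higher in 3 of 3 pairs (2.54, 2.17 and 1.71-fold). Two-sided exact permutation tests of these 3 ratios gave p = 0.1, 0.1 and 0.2. Tlr2 transcript exceeded both partner transcripts in all 6 libraries, and by more over Tlr6 in every LPS library.

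Because 8 receptors were highest in the libraries richest in macrophage markers, each was also expressed per 100 CPM of Ptprc, the leukocyte marker CD45, in the same library. Tlr13 then gave 179, 183 and 192 in control and 28.7, 22.1 and 28.4 in LPS. The wide span of its CPM among controls was gone, and the groups were 6.99-fold apart. Tlr7 gave 95.3, 99.7 and 90.4 in control and 45.0, 43.5 and 49.4 in LPS. Its groups, which overlapped in CPM, lay 2.07-fold apart on this scale, with control higher. Tlr8 gave 42.1, 40.4 and 60.7 in control and 14.2, 11.8 and 32.1 in LPS, also lower after LPS in every library.

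Tlr1 was at 11.2, 12.0 and 14.2 per 100 CPM of Ptprc in control and at 65.4, 64.5 and 48.2 in LPS. Tlr2 was at 21.0, 18.3 and 15.4 in control and at 312, 213 and 89.3 in LPS, so its ratio differed widely between LPS libraries while staying above every control. Tlr3, called by CPM, was at 32.3, 18.3 and 11.8 in control and 67.4, 46.9 and 22.2 in LPS, where the groups overlapped although LPS was higher in 3 of 3 pairs (2.09, 2.56 and 1.88-fold). The ratios of Tlr5, Tlr6 and Tlr9 overlapped too, with LPS lower for Tlr5 and higher for Tlr9 in 3 of 3 pairs. In all, 2 receptors were above control without overlap and 3 below, where 2.70% of all genes tested were above and 8.07% below on the same scale.

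A marker serves as denominator only as far as it does not respond itself, and these markers differed in direction. Ptprc was at 47.8, 69.0 and 141 CPM in control and 69.8, 97.5 and 328 CPM in LPS, higher in LPS in 3 of 3 pairs, whereas Tyrobp was at 114, 161 and 327 CPM in control and 66.3, 89.6 and 291 CPM in LPS, lower in 3 of 3 pairs. Per 100 CPM of Tyrobp, Tlr13 was still lower in LPS, at 30.3, 24.0 and 32.1 beside 74.9, 78.1 and 82.6. Tlr7 was above control instead, at 47.4, 47.4 and 55.7 beside 39.9, 42.6 and 38.8, and Tlr8 overlapped. By Tyrobp, 6 receptors were above and 1 below, where 6.71% of all genes were above and 1.33% below. Per Csf1r 3 were above and 2 below (2.80% and 1.99% of all genes), and per summed macrophage markers 3 were above and 2 below (3.61% and 3.11%). Tlr1 and Tlr2 above control and Tlr13 below were the results that held per Ptprc, per Tyrobp, per Csf1r and per summed macrophage markers. With the replicate block 5 of the 18 macrophage markers were called higher, Ptprc among them (adjusted p = 0.0318), and 5 lower, Tyrobp among them (adjusted p = 0.0469). Adgre1, the 1 macrophage marker of 18 called higher in the single-term fit, was at 159, 229 and 472 CPM in control and 952, 1261 and 3699.6 CPM in LPS (log2 fold change 2.78, SE 0.68, adjusted p = 0.0452), and was added as a denominator after seeing the data. Per 100 CPM of Adgre1, Tlr1 was at 3.36, 3.61 and 4.22 in control and 4.79, 4.99 and 4.27 in LPS, so that its difference shrank to 1.26-fold with the groups barely apart. Tlr2 was 2.88-fold higher on this scale, Tlr3 overlapped, and the other 6 receptors were below control. In all 2 receptors were above and 6 below, where 1.08% of all genes were above and 87.9% below, so a position below control per Adgre1 was shared by most genes. The part of macrophage content in the differences between CPM levels was not tested beyond these ratios.

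**Figure D4:**
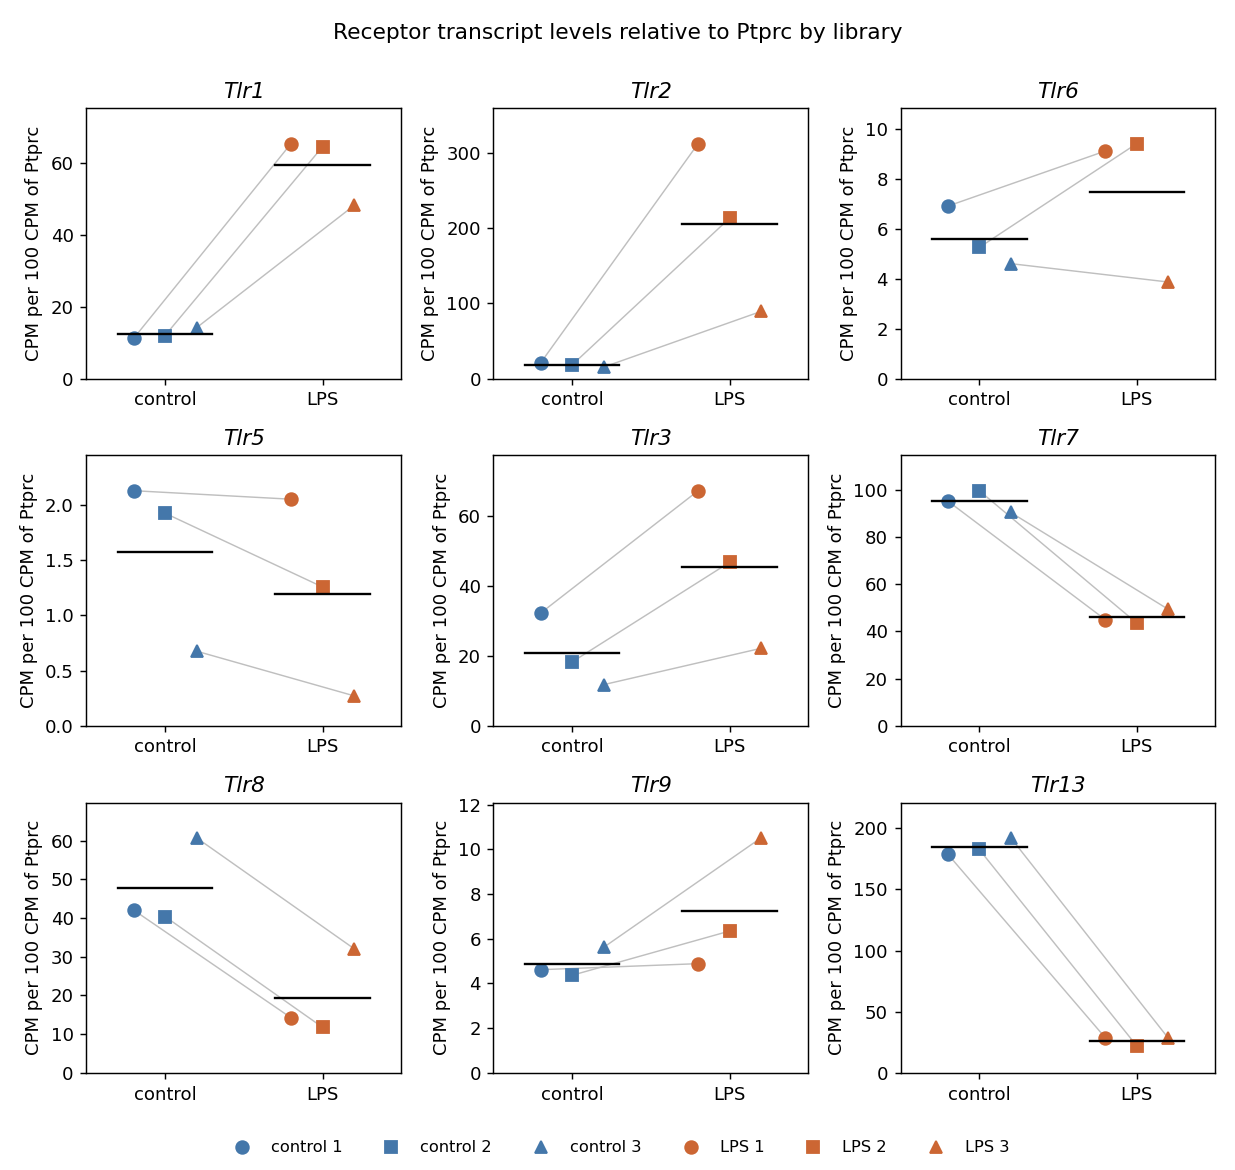
Level of each receptor per 100 CPM of Ptprc in every library, on linear axes from 0, with symbols, lines and bars as in the plot of CPM by library. Controls lie close together for Tlr1, Tlr2, Tlr7 and Tlr13, and the LPS libraries are all higher for Tlr1 and Tlr2 and all lower for Tlr7, Tlr8 and Tlr13.

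Finally, the partners of the receptors were examined, 48 genes in 8 roles, of which 47 passed the filter. In the single-term fit 14 rose, 1 fell and 32 were not called, with a median log2 fold change of 0.28, beside 9.09% higher, 6.71% lower and a median of -0.02 over all genes. The fit with the replicate block gave 22 higher and 5 lower, beside 15.4% and 14.9% of all genes. Among the chaperones and transporters, Slc15a3, a lysosomal histidine and peptide transporter, rose from 51.2, 63.8 and 121 CPM to 267, 354 and 504 CPM (log2 fold change 2.26, SE 0.40, adjusted p = 0.0193). Hsp90b1 (gp96, the folding chaperone of most TLRs) rose less, by 0.44 on the log2 scale (adjusted p = 0.0380). The call of Slc15a3 was lost without control 1, control 2 or LPS 2 (adjusted p up to 0.0976).

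Unc93b1, the chaperone of the endosomal receptors, was at 63.4, 90.4 and 172 CPM in control and at 111, 150.2 and 438 CPM in LPS. It overlapped between groups and differed by 1.10 on the log2 scale (SE 0.63, adjusted p = 0.281), or 0.97 (adjusted p = 0.0129) with the replicate block, higher in 3 of 3 pairs. The level was highest in replicate 3 of both groups. So were those of 8 of the 9 receptors, surface ones among them, all 18 macrophage markers and 29.5% of all genes tested. Of the 5 proteases that cut endosomal receptors none was called in the single-term fit of edgeR (1, Ctsk, was lower at an unadjusted p under 0.05, and 0 were called by DESeq2), and the block called Ctsb, Ctsk and Lgmn lower. Over all genes the block called 14.9% lower.

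Among 6 adaptors none was called in the single-term fit of edgeR, where Ticam1 and Ticam2 had an unadjusted p under 0.05, and DESeq2 called 2 higher (13.7% of all genes were). The block called 3 of the 6 higher, Myd88, Ticam2 (adjusted p = 0.00421) and Pik3ap1 (adjusted p = 0.0423), beside 15.4% of all genes. Myd88 was at 29.4, 27.7 and 49.5 CPM in control and at 46.3, 50.8 and 121 CPM in LPS, overlapping in 1 library (log2 fold change 1.03, SE 0.44, adjusted p = 0.174, and 0.0127 with the block). Ticam1, the adaptor of TLR3, was at 26.2, 25.3 and 25.0 CPM in control and at 28.8, 29.9 and 30.1 CPM in LPS. It did not overlap between groups, but the difference of 0.21 on the log2 scale was not called by edgeR (SE 0.07, adjusted p = 0.108). DESeq2 called it (adjusted p = 0.0469), and with library size alone for scaling it was 0.057.

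Downstream of the adaptors, 5 of 12 kinases and ubiquitin ligases rose (9.09% of all genes did), led by Ikbke (IKKε), from 28.0, 27.8 and 41.6 CPM to 160, 171 and 347 CPM (log2 fold change 2.80, SE 0.37, adjusted p = 0.00839). The rest were Irak2, Traf3, Tbk1 and Ikbkb, each under 1 on the log2 scale. Without control 2 Ikbke was not called (adjusted p = 0.0578). Irf7, the interferon regulatory factor activated by TLR7 and TLR9, had the largest change of all partners. It was at 4.03, 4.52 and 5.12 CPM in control and at 467, 493 and 955 CPM in LPS (log2 fold change 7.13, SE 0.39, adjusted p = 0.000417). The other 2 interferon regulatory factors, Irf3 and Irf5, were not called in the single-term fit, and the block called Irf5 higher by 0.42 on the log2 scale (adjusted p = 0.0275).

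Among the inhibitors, Irak3 (IRAK-M), which restrains MyD88 signalling, rose from 11.7, 13.3 and 16.04 CPM to 67.1, 87.5 and 217 CPM (log2 fold change 3.18, SE 0.49, adjusted p = 0.0130). Tnfaip3 (A20) rose from 19.9, 23.3 and 36.5 CPM to 205, 262 and 91.5 CPM (log2 fold change 2.81, SE 0.45, adjusted p = 0.0146), with LPS 3 the lowest of the LPS libraries. Cyld also rose, by 0.35. Lbp, which carries LPS and lipoproteins to CD14, had the same pattern, at 12.9, 14.96 and 13.9 CPM in control and 239.5, 255 and 89.1 CPM in LPS (log2 fold change 3.81, SE 0.43, adjusted p = 0.00505). Cd14 was at 15.8, 28.6 and 92.4 CPM in control and 124, 172 and 344 CPM in LPS, without overlap. It was not called in the single-term fit (log2 fold change 2.22, SE 0.75, adjusted p = 0.101), while the block called it higher (adjusted p = 0.00436). Cd36, a scavenger receptor that hands diacylated ligands to TLR2 and TLR6, fell from 234, 266 and 215 CPM to 82.1, 91.7 and 139.9 CPM (log2 fold change -1.19, SE 0.22, adjusted p = 0.0214). Of the nucleases that trim endosomal ligands, Rnaset2a and Rnaset2b rose, by 1.50 and 1.64. These 2 are near-identical copies, so their counts could be split between them. Leaving out control 1 or control 2 lost the calls of Irak3, Tnfaip3 and Cd36, and leaving out LPS 1 or LPS 2 those of Tnfaip3 and Cd36, with adjusted p up to 0.0773, 0.0856 and 0.0958 and each direction kept.

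**Figure D5:**
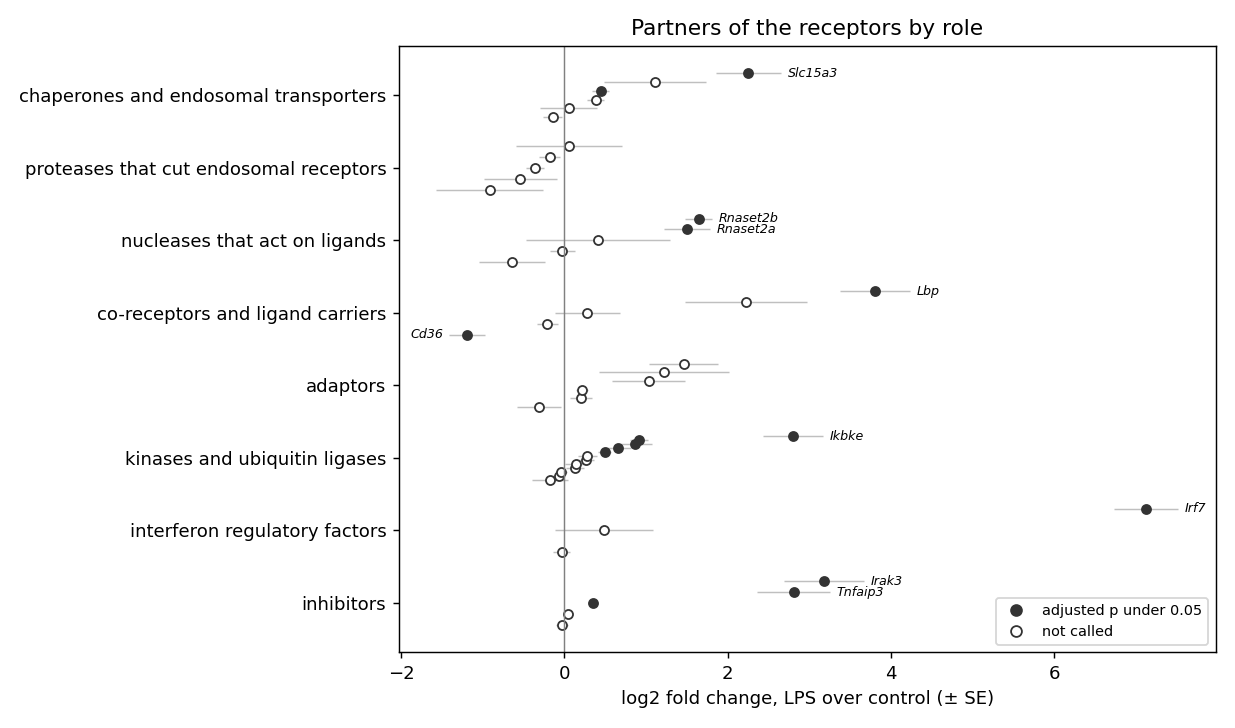
Log2 fold change of LPS over control, with SE bars, for the 47 partner genes that passed the filter, grouped by role. Filled points have an adjusted p under 0.05 in the single-term fit, and called genes with a change above 1 in size are named. Irf7 lies farthest to the right and Cd36 is the single filled point left of 0.

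The LPS receptor itself gave a reference for the family. Tlr4 was at 85.3, 95.2 and 98.2 CPM in control and at 99.2, 88.5 and 95.2 CPM in LPS, a difference of 0.02 on the log2 scale (SE 0.09, adjusted p = 0.892), and unlike Tlr7, Tlr8 and Tlr13 it differed little between replicate 3 and the rest (1.09 and 1.01 times the mean of replicates 1 and 2). Tlr11 and Tlr12 reached at most 2 and 5 counts in a library, both in LPS 3.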

How the data were processed

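Poly(A) RNA was sequenced from 3 control and 3 LPS cultures. Deposited files hold unnormalized counts, 1 whole number per gene and library. Per the submitters' processing notes and design text, the authors used FastX 0.0.14 (trimming and quality), cutadapt 1.15 (adapters), ShortRead 1.40.0 (quality), Bowtie2 2.3.3.1 (contaminants), STAR 2.5.2b (alignment to GRCm38) and SAMtools 1.5, and featureCounts 1.5.3 is also named. The kit marks strand, and the counting's strand setting is not given in the sources used here. No row lacked a gene and no libraries were identical.

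From these counts, edgeR 4.0.16 (R 4.3.3) kept 15226 genes (filterByExpr, minimum count 10, minimum total 15), scaled with TMM factors and tested LPS against control with the two-sided quasi-likelihood F-test, Benjamini-Hochberg adjusted over all genes and called under 0.05. Floors reflect counting error alone, since PCR copies went unmarked. The SE is the absolute log2 fold change over the square root of F. On simulated data (15021 genes, 200 changed) the test called 27.5% of genes changed 2-fold and 71.4% of those changed 4-fold, with 5.77% false calls. Pairing by replicate number was taken from the data: deviations from group means correlated with r = 0.513, 0.334 and 0.613 in pairs 1, 2 and 3, although LPS 2 correlated better with control 1 (0.419). Exon lengths came from GENCODE M21. Members and lists were chosen with earlier results of these data known. Named were all members, called partners (the 6 highest and the lowest by fold change), Unc93b1, Myd88, Ticam1, Tlr4, 5 markers (Ptprc, Csf1r, Adgre1, Tyrobp, Sox10) and the 2 genes most like each member; other partners and markers are named as examples chosen after their values were seen. Alternatives were other scaling factors, filters and tests (DESeq2 1.42.0, the edgeR exact test, limma-voom 3.58.1), the replicate block and each library left out. For shares and ratios they were the longest transcript as length, 0.5 counts added and other macrophage denominators.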

Additional observations from a re-analysis of the deposited data

How the results depend on the processing

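Tlr2 and Tlr3 kept their direction and call under all 17 alternatives. Tlr1 lost its call in 4 fits, each without a single library. The members called higher were 5 and those lower 1 with the replicate block, 1 lower with DESeq2, and 2 lower without both libraries numbered 3, or 5 higher and 3 lower when the block was added. With each library left out in turn, 2 to 3 members were higher and 0 to 1 lower (Tlr13, without LPS 3), and no member reached an unadjusted p under 0.05 in the lower direction in the single-term edgeR fit with all libraries. Sign turned for Tlr5 (-0.043 with library size alone, -0.052 to 0.28 over single libraries left out), Tlr7 (-1.13 to 0.47) and Tlr8 (-2.06 to 0.83), none of them called in those fits. For these the cause was not tested.

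Called partners numbered 22 higher and 5 lower with the block, 23 and 8 without both libraries numbered 3, 28 and 8 with both changes, 2 lower with upper-quartile factors or library size alone, and 4 to 15 higher and 0 to 1 lower over single libraries left out. Without control 1, control 2, LPS 1 and LPS 2 the higher partners were 5, 4, 8 and 6. Over all genes, 1384 were higher and 1022 lower. Counts moved to 2343 and 2273 with the block, 2079 and 1673 with DESeq2, 3498 and 3159 without both libraries numbered 3, 3987 and 3722 with both changes, 1589 lower with upper-quartile factors and 2054 lower with library size alone, which shifted the median log2 fold change to -0.12 and -0.18. Single libraries left out gave 379 to 1964 higher and 112 to 1426 lower, the lowest without control 2. Per Tyrobp in place of Ptprc, 6 members were above and 1 below. Per Adgre1, added after seeing the data, 2 were above and 6 below. The changes of the Tlr2, Tlr1 and Tlr6 ratios moved by less than the replicate spread with 0.5 counts added and with single libraries left out, and gene length cancels in them.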

Other observations

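The genes most like each receptor over the 6 libraries (Pearson r of log2 CPM, over 15225 other genes, a description with no test) were G6pdx (r = 0.9996) and Cd52 for Tlr1, Trim30d and H2-T23 for Tlr2, Strn4 and Ccdc71l for Tlr6, Opn3 and Ppia for Tlr5, Sltm and Med11 for Tlr3, Sema4d and Dock2 for Tlr7, Slc45a4 and Eef2kmt for Tlr8, Mgrn1 and Rab5c for Tlr9, and AA474331 and Tk2 for Tlr13. With 6 libraries in 2 groups such high values are common: 137 genes exceeded r = 0.99 for Tlr2, 60 for Tlr1, 66 for Tlr3, and none for Tlr5, whose 2 nearest genes reached 0.985 and 0.981.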
